A study of Homo sapiens with 12 samples.

Results

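JEKO1 is an established cell line from a patient with mantle cell lymphoma (MCL), a B-cell cancer driven by cyclin D1. It gave 4 of the 12 RNA-seq samples of this study, and all 4 are described here: control, ironomycin, ibrutinib, and both drugs together. Ironomycin was used at 50 nM and ibrutinib at 0.5 μM, each for 48 h, and all 4 cultures were grown in flasks in the same serum-rich RPMI medium. Each treatment is 1 library from 1 culture, so the ironomycin effect was seen in 2 pairs: ironomycin against control, and both drugs against ibrutinib alone. Of the 63677 genes counted, 15350 had 20 or more reads in at least 2 of the 4 libraries, and they make up what was tested. JVM2 and MAVER1, the other MCL lines of the study, received 250 nM ironomycin, with ibrutinib at 1.5 μM and 6.25 μM, and serve only for comparison. Fewer cells of one kind and less RNA per cell cannot be told apart in such bulk samples.

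Ironomycin is a derivative of salinomycin that holds iron in lysosomes, and ibrutinib inhibits BTK, a kinase downstream of the B-cell receptor. The endoplasmic reticulum (ER) responds to misfolded proteins through sensors in its membrane. IRE1 splices XBP1 mRNA, ATF6 is cut to release a transcription factor, and PERK slows translation while favouring that of ATF4. Together they raise chaperones, enzymes of disulfide formation, degradation factors and, when stress lasts, the CHOP programme. Interferon-stimulated genes are a separate antiviral group, switched on when a complex with STAT2 and IRF9 binds a short promoter element.

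The JEKO1 libraries held 35448523 to 38110422 counted reads. The library with both drugs stood apart from the other 3. It had 15625 genes with 20 or more reads against 14725 to 15214, and 2750 reads of 7SK, a small nuclear RNA without a poly(A) tail, against 66 to 176. Among B-cell markers, MS4A1, CD79A, CD79B, PAX5, CD74, CCND1 and SOX11 stood at 119 CPM or more in every library, while CD22 and CD5 were at 29.4 CPM or less. The summed level of the 10 B-cell and MCL markers was 9094 CPM in control, 7129.9 under ironomycin, 9331 under ibrutinib and 6705 under both. T and NK cell markers summed to 3.51 to 10.5 CPM, with CD7 the highest in each library and CD2 and KLRD1 at 0. Monocyte markers summed to 1.64 to 1.93 CPM, with FCGR3A, S100A8 and S100A9 at 0. CPM here means reads of a gene scaled to a common library size, after TMM scaling.

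More genes rose than fell with ironomycin. In an edgeR fit with ibrutinib as a block, 987 genes were called higher (6.43% of those tested) and 310 lower (2.02%). A call required a Benjamini-Hochberg adjusted p under 0.05, a fold change of at least 2, and the same direction in both pairs. Of these calls, 529 higher and 143 lower had a mean below 1 log2 CPM, which is near the floor of the data. The filter was passed only through the libraries with ironomycin by 283 of the genes called higher, and only through those without it by 42 called lower; such genes had to differ, and the remaining calls were 704 higher and 268 lower. For genes of this kind named here, reads are given and no test. Without the fold requirement, 19.7% of genes passed the adjusted p as higher and 17.7% as lower. In both pairs 6499 genes were higher and 6128 lower. These values are the background for the list counts below. The p-values rest on 1 residual degree of freedom, which measures how far the combination departed from the sum of the single-drug changes, with further information borrowed across genes. Without scaling between libraries, the median of all genes moved from 0.02 to 0.16 on the log2 scale, and the calls became 1339 higher and 218 lower, or 86.0% higher in place of 76.1%.

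A count from the same libraries that needs no test also held more rises than falls. Genes that changed at least 2-fold in both pairs numbered 521 higher (3.39%) and 163 lower (1.06%). All 684 were among the called genes, but the calls use the same ratios, so this overlap is not separate support. Genes that passed the filter only through libraries with, or only without, ironomycin were not taken out. The changes were larger in the pair with ibrutinib. There 1515 genes rose and 511 fell by 2-fold or more, against 654 and 237 in the pair without it. The genes shared by both pairs were 79.7% of the rises without ibrutinib and 34.4% of those with it, and 68.8% and 31.9% of the falls. Of the 1297 called genes, 1029 had the larger change with ibrutinib. Only 1 gene passed 2-fold in opposite directions. Each of these ratios sets 1 library against 1 library, so the difference in size between the pairs has no replicate check. With 1 library left out of a fit to all 12 libraries, the effect rests on 1 pair. The calls were then 498 higher and 208 lower without the ibrutinib library, 493 and 212 without the combination, 1667 and 498 without the control, and 1571 and 533 without the ironomycin library. Where the call of a gene under the naming rule was lost in such a fit, its log2 fold change without each library is given beside it. Such fits are not given for genes named after their values were seen. Log2 fold changes are not printed in the Results for genes that passed the filter only through the libraries with ironomycin.

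**Figure D1:**
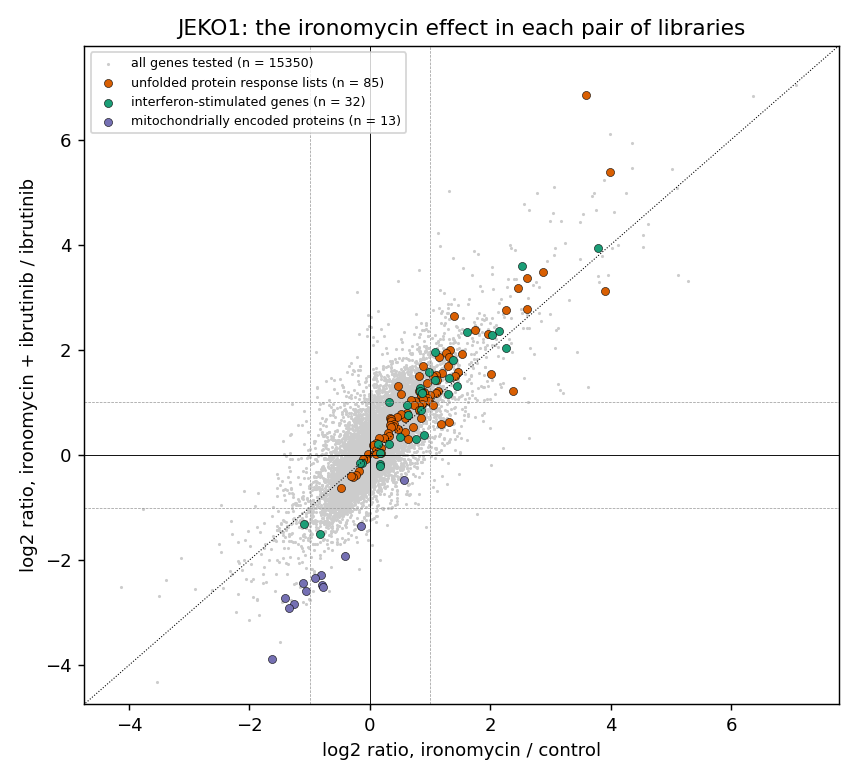
Log2 ratio of each of 15350 genes with ironomycin, without ibrutinib on the x axis and with ibrutinib on the y axis, from TMM-normalized CPM with a prior count of 2; dashed lines mark 2-fold and the dotted line equal ratios. The unfolded protein response genes and the interferon-stimulated genes lie mostly at the upper right, and 12 of the 13 mitochondrially encoded genes lie at the lower left, further down than left.

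The sensors of the unfolded protein response differed in how far their mRNAs moved. ERN1, which encodes IRE1, stood at 32.1 CPM in control, 196 under ironomycin, 30.4 under ibrutinib and 316 under both. Both libraries with ironomycin were above both without it, and the gene was called higher at 2.99 ± 0.15 (SE) on the log2 scale (edgeR adjusted p = 3.44e-20). EIF2AK3, the gene of PERK, stood at 26.7 CPM in control, 40.1 under ironomycin, 34.1 under ibrutinib and 46.2 under both. It passed the adjusted p but not 2-fold, with a log2 fold change of 0.51 ± 0.12 (SE) (edgeR adjusted p = 8.31e-04). ATF6 stood at 51.2 CPM in control, 59.9 under ironomycin, 46.1 under ibrutinib and 57.8 under both, and its log2 fold change of 0.28 ± 0.12 (SE) did not pass the test (edgeR adjusted p = 0.0537).

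The transcription factors downstream also differed. XBP1, the substrate of IRE1, stood at 40.4 CPM in control, 112 under ironomycin, 46.0 under ibrutinib and 137 under both, and was called higher at 1.53 ± 0.12 (SE) (edgeR adjusted p = 8.99e-14). The counts do not separate its spliced and unspliced forms. ATF4, which is controlled mainly at translation, stood at 346 CPM in control, 430.2 under ironomycin, 419.5 under ibrutinib and 536 under both, and its change of 0.33 ± 0.16 (SE) did not pass (edgeR adjusted p = 0.102). DDIT3, the gene of CHOP and a target of ATF4, stood at 20.4 CPM in control, 98.6 under ironomycin, 23.1 under ibrutinib and 157 under both. The libraries with ironomycin did not overlap those without, and DDIT3 was called higher at 2.52 ± 0.13 (SE) (edgeR adjusted p = 1.17e-19).

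Chaperones and folding enzymes of the ER rose together. Of the 32 listed genes of ATF6 and ER folding, all were tested, and 15 were called higher (46.9%, against 6.43% of all genes) and 0 lower. All 32 had positive ratios in both pairs. Their median log2 fold change was 0.94, against 0.02 for all genes. At any fold, 26 passed the adjusted p as higher, against 19.7% of all genes. HSPA5, the gene of the chaperone BiP that binds and restrains the sensors, stood at 584 CPM in control, 1158 under ironomycin, 552 under ibrutinib and 1120.4 under both. Its fold was close to 2 in both pairs, with a log2 fold change of 1.01 ± 0.21 (SE) (edgeR adjusted p = 2.79e-04). That value lay just above the fold threshold, and the call was lost in 7 of 12 alternatives. Over all 12 the log2 fold change ran from 0.96 to 1.15, and without the ibrutinib or the combination library it was 0.99 and 0.98. PDIA2, a disulfide isomerase best known from pancreas, stood at 17.2 CPM in control, 275 under ironomycin, 10.8 under ibrutinib and 452 under both. It was the largest rise in the list, with a log2 fold change of 4.68 ± 0.20 (SE) (edgeR adjusted p = 1.22e-22). ERO1B, an oxidase that recharges disulfide isomerases, stood at 2.48 CPM in control, 6.36 under ironomycin, 3.46 under ibrutinib and 13.9 under both, a log2 fold change of 1.71 ± 0.21 (SE). FKBP14, a prolyl isomerase, stood at 3.20 CPM in control, 7.15 under ironomycin, 3.43 under ibrutinib and 12.6 under both, a log2 fold change of 1.54 ± 0.21 (SE). CREB3L2, an ER-bound transcription factor of secretory cells, stood at 30.7 CPM in control, 71.0 under ironomycin, 28.3 under ibrutinib and 83.6 under both, a log2 fold change of 1.38 ± 0.12 (SE). All of these genes were higher in both libraries with ironomycin than in both without. In the fit to all 12 libraries, 8 members were called higher without the combination library, 9 without the ibrutinib library, and 17 without either the control or the ironomycin library.

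Promoters of several called chaperones hold the elements through which ATF6 acts, and 3 of them are shown for that reason. The ER stress response element (ERSE) was searched as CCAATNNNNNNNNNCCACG and the related ERSE-II as ATTGGNCCACG, on both strands, in RefSeq promoters from 250 bases before to 50 after the start (GRCh38.p14). ERSE was found in 22 of 27305 promoters (0.0806%) and ERSE-II in 17 (0.0623%). Among the 30 members of the ATF6 and ER folding list with a promoter, ERSE was found in 6 (HSPA5, HSP90B1, CALR, PDIA6, CRELD2 and ERO1B), and ERSE-II in 2 (SDF2L1 and HYOU1). Of these 8 genes, CALR and PDIA6 were not called. The shorter core of the XBP1 element, TGACGTG, was found in 4 of the 30 and in 1.96% of all promoters. In the list of the IRE1-XBP1 branch and ER-associated degradation it was found in 2 of 23 promoters. There ERSE was found in 0 and ERSE-II in 1. None of the 3 elements was found in the 7 members of that list called higher. A match describes letters in the window and does not show binding. The bases before the start are printed 5′ to 3′ on the strand of the gene, with the fixed letters of the elements in capitals. HSPA5 lies on the minus strand (chr9:125241344-125241593), HSP90B1 on the plus strand (chr12:103930160-103930409) and HYOU1 on the minus strand (chr11:119057206-119057455).
HSPA5: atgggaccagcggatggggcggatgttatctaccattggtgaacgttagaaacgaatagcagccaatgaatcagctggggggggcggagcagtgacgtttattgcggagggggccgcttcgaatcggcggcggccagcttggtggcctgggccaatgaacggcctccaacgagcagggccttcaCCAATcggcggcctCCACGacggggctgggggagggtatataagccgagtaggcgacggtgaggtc
HSP90B1: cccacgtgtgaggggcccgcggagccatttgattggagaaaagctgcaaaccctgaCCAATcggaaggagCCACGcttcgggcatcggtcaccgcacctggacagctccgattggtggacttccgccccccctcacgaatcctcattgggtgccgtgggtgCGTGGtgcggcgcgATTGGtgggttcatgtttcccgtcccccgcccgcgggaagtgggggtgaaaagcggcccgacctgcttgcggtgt
HYOU1: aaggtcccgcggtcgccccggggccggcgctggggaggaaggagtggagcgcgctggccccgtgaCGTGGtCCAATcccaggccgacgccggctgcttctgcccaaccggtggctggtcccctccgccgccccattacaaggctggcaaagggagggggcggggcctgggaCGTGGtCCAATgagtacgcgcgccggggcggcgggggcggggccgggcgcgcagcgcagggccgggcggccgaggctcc
HSPA5 holds 1 ERSE that begins 66 bases before the start. HSP90B1 holds 2, in opposite orientation, that begin 194 and 89 bases before it. HYOU1 holds 2 copies of ERSE-II, that begin 185 and 79 bases before it, both on the strand opposite to the gene. HSP90B1 and HYOU1 fell outside the naming rule and were chosen after their values were seen. HSP90B1, the gene of the chaperone GRP94, stood at 337 CPM in control, 654 under ironomycin, 311 under ibrutinib and 659 under both, with a log2 fold change of 1.02 ± 0.17 (SE) (edgeR adjusted p = 9.27e-06). Its log2 ratio was 0.96 in the pair without ibrutinib, which is under 2-fold, and 1.08 in the pair with it. HYOU1, the gene of the chaperone GRP170, stood at 127 CPM in control, 274 under ironomycin, 117 under ibrutinib and 317 under both, with a log2 fold change of 1.27 ± 0.14 (SE) (edgeR adjusted p = 6.31e-10).

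**Figure D2:**
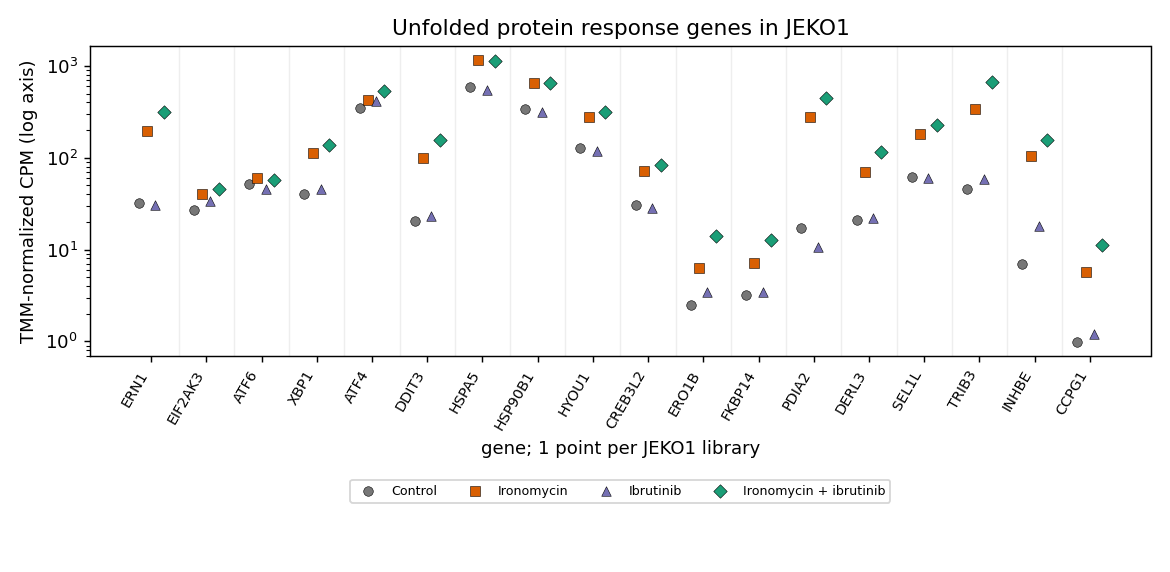
TMM-normalized CPM (log axis) of 18 unfolded protein response genes, with 1 point for each JEKO1 library and no error bars because each treatment has 1 library. For ERN1, XBP1, DDIT3, HSPA5 and the other genes called higher, both libraries with ironomycin lie above both without it; ATF6, EIF2AK3 and ATF4 lie closer together.

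The degradation arm moved less evenly. In the list of the IRE1-XBP1 branch and ER-associated degradation, 8 of 27 genes were called higher (29.6%, against 6.43% of all genes) and 0 lower. Its median log2 fold change was 0.67. DERL3, a channel component for misfolded proteins, stood at 20.8 CPM in control, 69.5 under ironomycin, 22.1 under ibrutinib and 115 under both, a log2 fold change of 2.06 ± 0.13 (SE). SEL1L, the adaptor of the ubiquitin ligase SYVN1, stood at 62.3 CPM in control, 179 under ironomycin, 59.9 under ibrutinib and 226 under both, a log2 fold change of 1.72 ± 0.13 (SE). Both genes were higher in each library with ironomycin. Not all members rose: 2 passed the adjusted p as lower. VCP, the ATPase that pulls substrates out of the membrane, stood at 803 CPM in control, 665 under ironomycin, 720.2 under ibrutinib and 537 under both, a log2 fold change of -0.35 ± 0.19 (SE) that did not pass (edgeR adjusted p = 0.157). UFD1, a partner of VCP, had a log2 fold change of -0.30 ± 0.12 (SE) (edgeR adjusted p = 0.0349). VCP and UFD1 were named after their values were seen.

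The PERK-ATF4-CHOP list had the highest median of the 34 lists. Of 26 genes tested, 14 were called higher (53.8%, against 6.43% of all genes) and 0 lower, and the median log2 fold change was 1.24. The count was also 14 without the ibrutinib library and without the combination library, and 6 without the block for ibrutinib. TRIB3, a pseudokinase induced by ATF4 and CHOP, stood at 46.0 CPM in control, 338 under ironomycin, 59.4 under ibrutinib and 659.8 under both. INHBE, an activin subunit that marks ATF4 activity, stood at 6.93 CPM in control, 105 under ironomycin, 18.0 under ibrutinib and 157 under both. CCPG1, a receptor for selective autophagy of the ER, stood at 0.994 CPM in control, 5.73 under ironomycin, 1.19 under ibrutinib and 11.2 under both. In each of these genes the libraries with ironomycin did not overlap those without, and the log2 fold changes were 3.18 ± 0.16 (SE), 3.50 ± 0.14 (SE) and 2.92 ± 0.25 (SE). GDF15, a stress cytokine, had 5 reads in control, 86 under ironomycin, 0 under ibrutinib and 236 under both. No fold is given because GDF15 passed the filter only through the libraries with ironomycin, which fixed that order. Without GDF15, 13 members of the list were called higher. EIF2S1, the translation factor subunit that PERK phosphorylates, was lower, at 213 CPM in control, 153 under ironomycin, 196 under ibrutinib and 127 under both, with a log2 fold change of -0.55 ± 0.13 (SE) (edgeR adjusted p = 6.55e-04); it was named after its value was seen. The element CARE (TGATGNAA), which ATF4 and CHOP recognise, was found in 3 of the 23 members with a promoter and in 3.75% of all promoters, and 1 of those members, ATF3, was called.

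Amino acid genes, which ATF4 also controls, moved in part. Among 15 amino acid transporters, 3 were called higher (20.0%, against 6.43% of all genes) and 0 lower, with a median of 0.22. SLC6A9, a glycine transporter, stood at 2.18 CPM in control, 17.7 under ironomycin, 5.78 under ibrutinib and 37.6 under both, a log2 fold change of 2.84 ± 0.16 (SE). SLC7A11, the cystine transporter that feeds glutathione synthesis, stood at 10.5 CPM in control, 23.6 under ironomycin, 6.99 under ibrutinib and 32.4 under both, a log2 fold change of 1.68 ± 0.17 (SE). SLC43A1, a transporter of large neutral amino acids, had a log2 fold change of 1.07 ± 0.12 (SE), and its call was lost without the combination library at 0.99 and without the ibrutinib library, where its fold was just under 2. Of 14 genes of serine, asparagine and proline synthesis, only the mitochondrial folate enzyme ALDH1L2 was called, with 4 reads in control, 36 under ironomycin, 8 under ibrutinib and 65 under both. It passed the filter only through the libraries with ironomycin, and its call was lost in DESeq2 and without the block for ibrutinib, which left 0 called. The median of that list was 0.47 without ibrutinib and -0.07 with it. Of 20 aminoacyl-tRNA synthetases, only WARS1, which is also induced by interferon, was called, at 124 CPM in control, 409 under ironomycin, 121 under ibrutinib and 545 under both, a log2 fold change of 1.94 ± 0.15 (SE). The median of the synthetases was -0.07, and 0.08 without scaling between libraries.

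The export route beyond the ER showed fewer calls. Among 38 genes of ER to Golgi transport, 4 were called higher (10.5%, against 6.43% of all genes) and 0 lower. At any fold 26 passed the adjusted p as higher and 1 as lower, against 19.7% and 17.7% of all genes. The median was 0.47. SEC24D, a coat subunit that selects cargo, stood at 34.3 CPM in control, 117 under ironomycin, 22.9 under ibrutinib and 115 under both, a log2 fold change of 2.05 ± 0.13 (SE). GOLGB1, the Golgi tether giantin, stood at 48.7 CPM in control, 113 under ironomycin, 54.3 under ibrutinib and 184 under both, a log2 fold change of 1.49 ± 0.13 (SE). LMAN1 and TMED2, both cargo receptors, had log2 fold changes of 1.13 ± 0.12 (SE) and 1.03 ± 0.12 (SE); both calls were lost without the ibrutinib or the combination library, at 0.97 and 0.96 and 0.91 and 0.90. In N-linked glycosylation, 2 of 37 genes (5.41%) were called higher, a share below the 6.43% of all genes. PGM3 had a log2 fold change of 1.25 ± 0.15 (SE) and GFPT1 one of 1.05 ± 0.12 (SE). The call of GFPT1 was lost without the ibrutinib or the combination library, at 0.92 and 0.91.

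**Figure D3:**
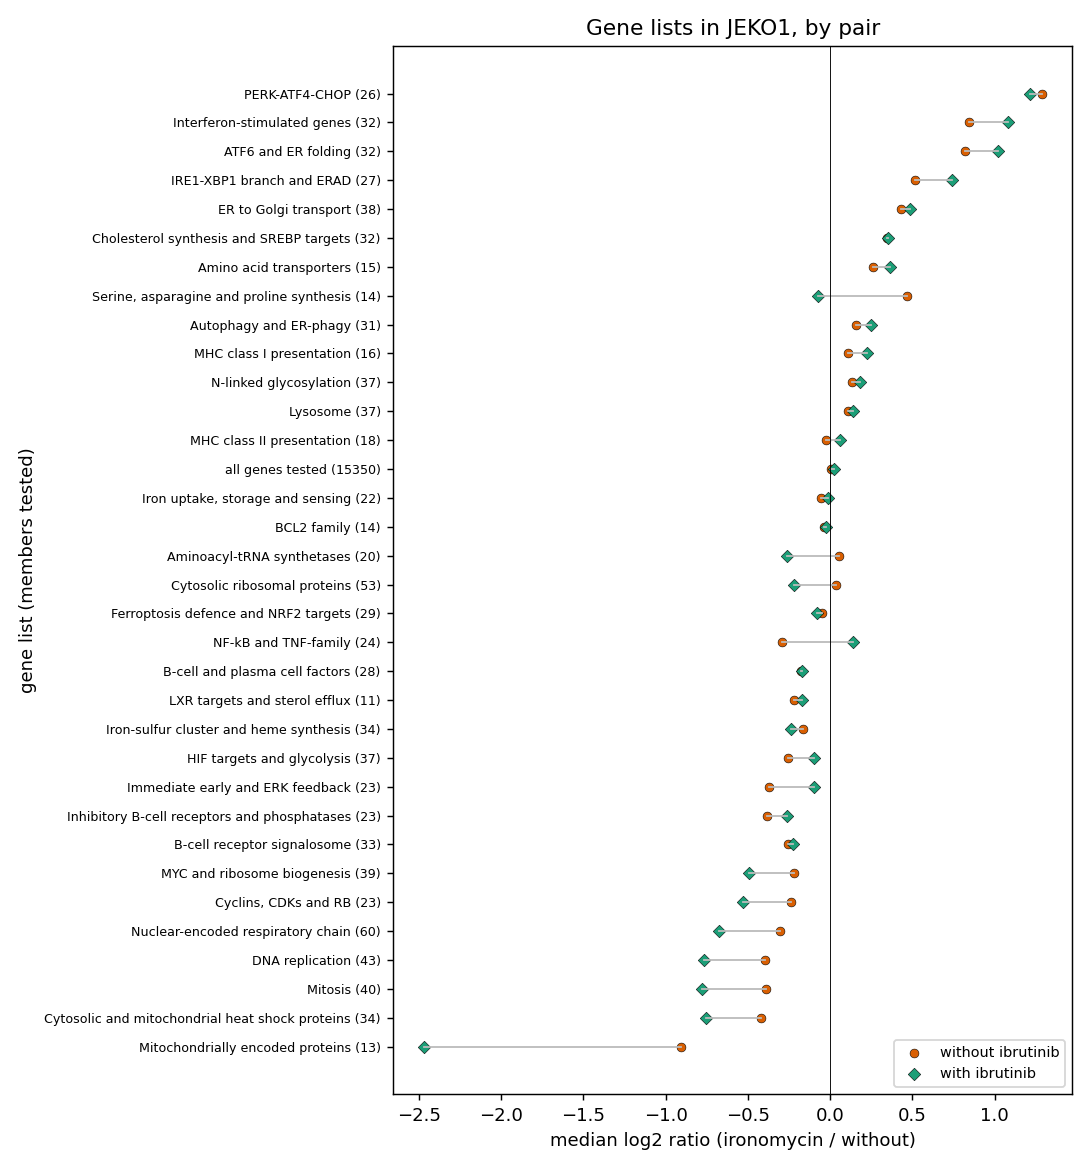
Median log2 ratio of the tested members of the gene lists and of all genes, with circles for the pair without ibrutinib and diamonds for the pair with it; no error is drawn because each pair has 1 library per arm. The PERK-ATF4-CHOP, interferon-stimulated and ATF6 lists lie furthest to the right, and the mitochondrially encoded proteins lie furthest to the left, at -0.91 and -2.47.

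Interferon-stimulated genes rose in JEKO1, with no interferon among the treatments. Of 32 genes tested, 16 were called higher (50.0%, against 6.43% of all genes) and 2 lower (6.25%, against 2.02%). IFI44L and IFIT1 passed the filter only through the libraries with ironomycin, and without them 14 were called higher. Over the 32, the median log2 fold change was 0.94, with 0.85 without and 1.08 with ibrutinib. Several members started from very few reads. IFI44L, a gene of the IFI44 pair, had 16 reads in control, 259 under ironomycin, 6 under ibrutinib and 128 under both, and IFIT1, a sensor of uncapped viral RNA, had 3 reads in control, 28 under ironomycin, 1 under ibrutinib and 36 under both. IFIT3, its partner, had 27 reads in control, 133 under ironomycin, 16 under ibrutinib and 96 under both, and IFI44 had 27 reads in control, 143 under ironomycin, 20 under ibrutinib and 94 under both. Every library with ironomycin had more reads of IFIT3 and IFI44 than either library without it. For IFI44L and IFIT1 the filter fixed that order. The log2 fold changes were 2.34 ± 0.31 (SE) for IFIT3 and 2.25 ± 0.30 (SE) for IFI44 (edgeR adjusted p = 1.05e-07 and 1.51e-07), and the call of IFIT1 was lost in DESeq2. XAF1, a pro-apoptotic target of interferon, stood at 2.93 CPM in control, 12 under ironomycin, 2.41 under ibrutinib and 11.9 under both, a log2 fold change of 2.17 ± 0.20 (SE).

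The better expressed members moved less. MX1, a GTPase that blocks viral replication, stood at 28.2 CPM in control, 69.4 under ironomycin, 11.7 under ibrutinib and 26.1 under both. The rise was present within each pair, at 1.30 without and 1.16 with ibrutinib on the log2 scale, but the combination library lay below the control, so the groups overlapped. Among the transcription factors of this response, named after their values were seen, STAT2 stood at 92.3 CPM in control, 239.7 under ironomycin, 94.0 under ibrutinib and 328 under both and was called higher at 1.59 ± 0.14 (SE). IRF9 was called at 1.30 ± 0.24 (SE), with log2 ratios of 0.99 without and 1.58 with ibrutinib. Of the 32 members, 4 were lower in both pairs. Those called lower were IFITM2 and IFITM3, membrane proteins that restrict viral entry. IFITM2 stood at 59.0 CPM in control, 27.7 under ironomycin, 53.6 under ibrutinib and 21.5 under both, a log2 fold change of -1.20 ± 0.12 (SE), and IFITM3 had one of -1.16 ± 0.25 (SE). These genes are close copies, so some reads may be assigned to the wrong one, and the call of IFITM3 was lost without the ibrutinib or the combination library, at -0.84 and -0.85. ISG15 and MX2, members named after their values were seen, had log2 fold changes of 0.27 ± 0.13 (SE) and 0.11 ± 0.12 (SE) that did not pass (edgeR adjusted p = 0.111 and 0.525). In the fit to all 12 libraries, 11 members were called higher without the combination library, 12 without the ibrutinib library, and 11 without a filter on low counts.

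The promoter element of these genes is shown for IFI44L and IFIT1, the members with the largest fitted change. The interferon-stimulated response element (ISRE) was searched as GAAANNGAAA on both strands. It was found in 997 of 27305 promoters (3.65%), in 17 of the 23 tested members with a promoter (73.9%), and in 9 of the 12 of those called higher. The 9 include IFI44L and IFIT1, which passed the filter only through the libraries with ironomycin. IFI44L and IFIT1 lie on the plus strands of chr1:78620198-78620447 and chr10:89392373-89392622 (GRCh38.p14, RefSeq), and the fixed letters of each ISRE are in capitals.
IFI44L: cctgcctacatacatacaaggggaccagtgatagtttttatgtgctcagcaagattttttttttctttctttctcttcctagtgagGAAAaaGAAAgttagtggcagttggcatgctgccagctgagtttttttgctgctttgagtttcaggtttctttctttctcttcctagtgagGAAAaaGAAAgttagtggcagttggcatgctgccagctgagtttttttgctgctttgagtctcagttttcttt
IFIT1: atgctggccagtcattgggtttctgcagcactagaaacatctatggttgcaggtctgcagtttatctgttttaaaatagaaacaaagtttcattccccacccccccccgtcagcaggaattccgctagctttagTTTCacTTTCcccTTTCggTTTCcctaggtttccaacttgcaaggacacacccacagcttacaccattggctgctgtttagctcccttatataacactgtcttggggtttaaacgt
IFI44L holds the element at 164 and 73 bases before the start, on the strand of the gene. IFIT1 holds it at 116 and 103 bases before the start, on the opposite strand.

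Genes of type I interferons themselves had few reads. IFNB1, which encodes interferon beta, had 0 reads in control, 4 under ironomycin, 0 under ibrutinib and 5 under both, below the filter. IFNA21 and IFNW1, which encode an alpha and the omega interferon, passed the filter only through the libraries with ironomycin, so no test is given. IFNA21 had 2 reads in control, 31 under ironomycin, 1 under ibrutinib and 66 under both, and IFNW1 had 8 reads in control, 36 under ironomycin, 7 under ibrutinib and 46 under both. For IFNA21 and IFNW1 the filter fixed that the libraries with ironomycin had more reads. The alpha interferon genes are near-identical copies, so the assignment of reads to IFNA21 is uncertain. These 3 genes were looked at after the interferon-stimulated genes were seen.

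Several interferon-stimulated genes responded more strongly in JEKO1 than in the other lines. In the fit to all 12 libraries, the ironomycin effect in JEKO1 was above the mean of JVM2 and MAVER1 for 147 of 17410 genes (0.844%) and below it for 85 (0.488%), at an adjusted p under 0.05 and a log2 difference of at least 1. Of the 32 interferon-stimulated genes, 12 had a difference called above and 0 below. The 12 include IFI44L and IFIT1, which passed the JEKO1 filter only through the libraries with ironomycin. The list's median log2 fold change was 0.93 for JEKO1, -0.45 for JVM2 and -0.01 for MAVER1. MX1 changed by 1.22, -0.85 and -1.20 in JEKO1, JVM2 and MAVER1, a difference of 2.25 (edgeR adjusted p = 1.43e-05). IFI44 changed by -0.77 in JVM2 and -0.19 in MAVER1, and the difference of JEKO1 from their mean was 2.71 (edgeR adjusted p = 1.14e-04). Some members rose in MAVER1 as well: OAS3, named after its value was seen, changed by 1.38, -0.39 and 2.47, and its difference was not called (edgeR adjusted p = 0.326). Dose and cell line cannot be told apart in these differences, since JEKO1 received 50 nM and the other lines 250 nM.

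**Figure D4:**
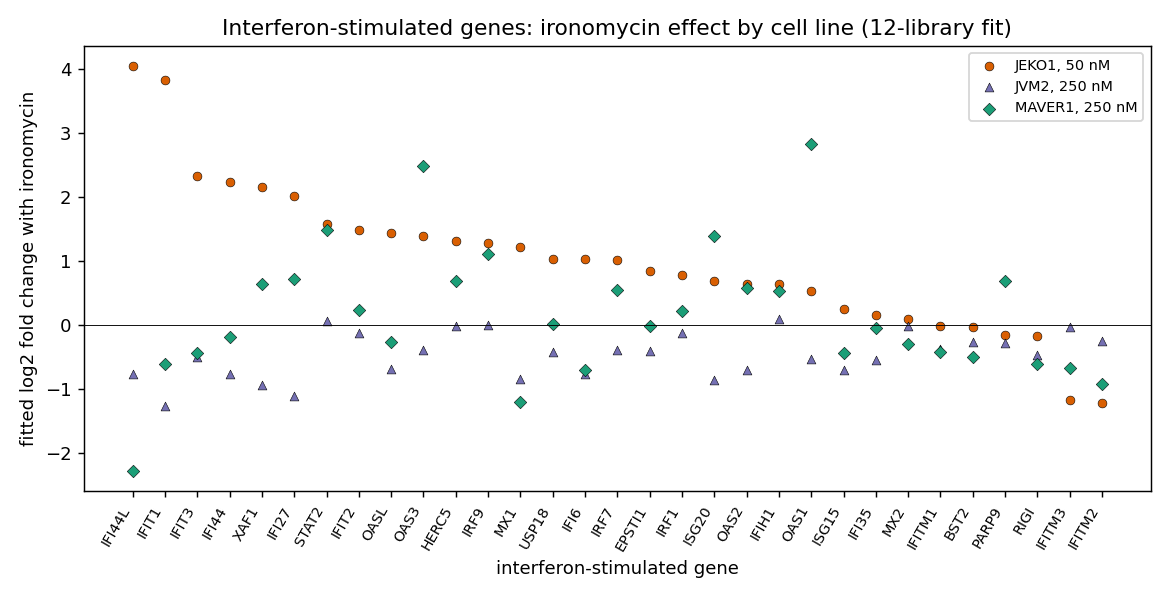
Fitted log2 fold change with ironomycin of 31 of the 32 interferon-stimulated genes in JEKO1 (50 nM, circles), JVM2 (250 nM, triangles) and MAVER1 (250 nM, diamonds), from the fit to 12 libraries, ordered by JEKO1; no error is drawn. IFIT3 and IFI44 lie above 2 in JEKO1 and below 0 in both other lines, while OAS3 and OAS1 are highest in MAVER1. IFI44L and IFIT1 lie with IFIT3 and IFI44, but passed the JEKO1 filter only through the libraries with ironomycin.

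The unfolded protein response lists held fewer called differences between lines. The ATF6 and ER folding list had medians of 0.93 for JEKO1, 0.12 for JVM2 and 0.54 for MAVER1, and 0 of its 32 members had a called difference. The PERK-ATF4-CHOP list had medians of 1.23, 0.48 and 1.17, with 5 differences called above. TRIB3 changed by 3.16, 0.44 and 1.45, a difference of 2.22 (edgeR adjusted p = 7.07e-04). XBP1 changed by 1.51, -0.18 and 0.18, a difference of 1.51 (edgeR adjusted p = 1.09e-04). ERN1 changed by 2.98, 0.85 and 2.85, and its difference was not called (edgeR adjusted p = 0.0511).

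Protein-coding transcripts of the mitochondrial genome fell. This genome encodes 13 subunits of the respiratory chain, which are made by ribosomes inside the organelle. All 13 were tested, and 11 were called lower (84.6%, against 2.02% of all genes) and 0 higher, with a median log2 fold change of -1.64. MT-CO1, a catalytic subunit of cytochrome c oxidase, stood at 4299 CPM in control, 1619 under ironomycin, 4109 under ibrutinib and 619.9 under both. MT-CO2, another, stood at 2405 CPM in control, 1002 under ironomycin, 2210.1 under ibrutinib and 309 under both, and MT-ND3, a small subunit of complex I, stood at 378 CPM in control, 122 under ironomycin, 419 under ibrutinib and 28.2 under both. In each, both libraries with ironomycin were below both without it, and the library with both drugs was lowest. The log2 fold changes were -2.07 ± 0.41 (SE) for MT-CO1, -2.05 ± 0.32 (SE) for MT-CO2 and -2.74 ± 0.25 (SE) for MT-ND3. MT-ND6, the subunit encoded on the other strand, stood at 205 CPM in control, 81.0 under ironomycin, 232 under ibrutinib and 30.9 under both, a log2 fold change of -2.12 ± 0.18 (SE). The members not called were seen after the others. MT-ND1 changed by -0.75 ± 0.25 (SE), and MT-ND2 stood at 1185 CPM in control, 1759 under ironomycin, 1338 under ibrutinib and 963 under both, so that it was highest with ironomycin alone.

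The mitochondrial protein genes took a like share of reads in the control and ibrutinib libraries and a lower one in both with ironomycin. The protein genes of this genome took 1.75% of reads in control, 1.05% under ironomycin, 1.76% under ibrutinib and 0.454% under both. Other genes of this genome, such as its ribosomal and transfer RNAs, took 0.30%, 0.219%, 0.274% and 0.429% in the same order, so they were highest in the combination library. The median log2 ratio of the 13 genes was -0.91 without and -2.47 with ibrutinib. The combination library, where the fall was deepest, was also the one with 2750 reads of 7SK, and the part this played was not tested. Without that library or without the ibrutinib library, 6 of the 13 genes were called lower; without either the control or the ironomycin library, 12 were. The calls fell to 5 without a filter on low counts, 8 in DESeq2, and 0 without the block for ibrutinib, while the median stayed between -2.48 and -0.90 in every alternative run. In JVM2 and MAVER1 the list's medians were -0.05 and -0.45, and 5 members had a difference called below. MT-ND4 changed by -1.78 for JEKO1, 0.017 for JVM2 and 0.062 for MAVER1, a difference of -1.82 (edgeR adjusted p = 0.0129).

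**Figure D5:**
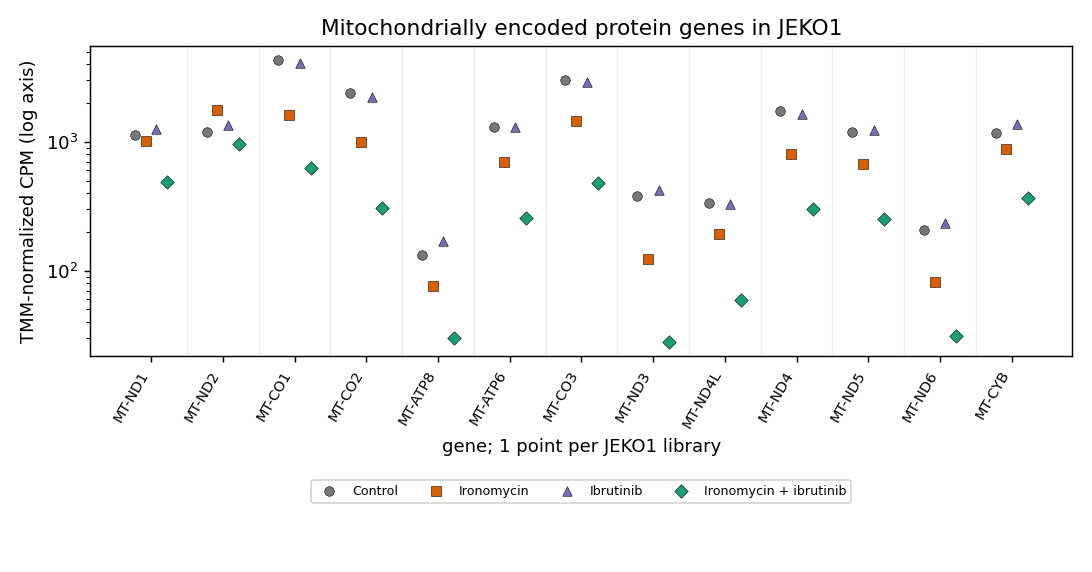
TMM-normalized CPM (log axis) of the 13 mitochondrially encoded protein genes, in the order of the genome, with 1 point for each JEKO1 library and no error bars because each treatment has 1 library. The library with both drugs is the lowest for every gene, and for 12 genes the ironomycin library lies below control and ibrutinib; MT-ND2 is highest with ironomycin alone.

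Respiratory chain genes of the nucleus moved in the same direction by less. Of 60 tested, 0 were called in either direction, and the median was -0.50. At any fold, 43 passed the adjusted p as lower and 2 as higher, against 17.7% and 19.7% of all genes. The median was -0.30 without and -0.67 with ibrutinib. CYCS, the gene of cytochrome c, stood at 343 CPM in control, 267 under ironomycin, 322 under ibrutinib and 179 under both, a log2 fold change of -0.61 ± 0.15 (SE) (edgeR adjusted p = 0.00116). Genes of iron-sulfur cluster and heme synthesis had a median of -0.20, with 1 of 34 called higher (2.94%, against 6.43% of all genes). That gene was ABCB6, a porphyrin transporter, at 2.84 CPM in control, 4.36 under ironomycin, 2.10 under ibrutinib and 7.73 under both, and its call was lost without a filter on low counts and without the ibrutinib or the combination library, at 0.62 and 0.61.

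Most cell division genes fell, nearly all by less than 2-fold in the fit to the 4 libraries. Of 43 DNA replication genes, 35 passed the adjusted p as lower and 0 as higher, against 17.7% and 19.7% of all genes. Only 1 was called lower (2.33%, against 2.02% of all genes), and the median was -0.58. TK1, thymidine kinase, stood at 276 CPM in control, 167 under ironomycin, 272 under ibrutinib and 110.4 under both, a log2 fold change of -1.01 ± 0.14 (SE). Of 40 mitosis genes, 33 passed as lower and 0 as higher, against the same shares. Only 1 was called lower (2.50%, against 2.02% of all genes), and the median was -0.59. CCNB1, cyclin B1, stood at 271 CPM in control, 169 under ironomycin, 277 under ibrutinib and 109.9 under both, a log2 fold change of -1.01 ± 0.14 (SE). Both calls were lost without scaling between libraries, at -0.87 and -0.87, and without the ibrutinib or the combination library, at -0.72 and -0.73 for TK1 and -0.68 and -0.68 for CCNB1. Without the control or the ironomycin library, 7 and 8 replication genes and 10 and 12 mitosis genes were called lower. Genes of MYC and ribosome biogenesis had 20 of 39 passing as lower, against 17.7% of all genes, and a median of -0.35. Cytosolic ribosomal proteins had 0 of 53 passing in either direction and a median of -0.09, which became 0.05 without scaling between libraries.

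Cyclin D1 and its partners were not called. CCND1, which the chromosomal translocation of MCL drives, stood at 3490.2 CPM in control, 2567 under ironomycin, 3863 under ibrutinib and 2400.2 under both. Both libraries with ironomycin were lower, but the log2 fold change of -0.56 ± 0.40 (SE) did not pass (edgeR adjusted p = 0.281). CDK4, its kinase, had a log2 fold change of -0.44 ± 0.19 (SE) that did not pass (edgeR adjusted p = 0.0733). RB1, the substrate, had a log2 fold change of -0.57 ± 0.13 (SE) that passed the adjusted p (edgeR, 5.86e-04) but not 2-fold. Of the CDK inhibitors, CDKN1A (p21) stood at 53.9 CPM in control, 85.3 under ironomycin, 36.5 under ibrutinib and 105 under both and was called higher at 1.09 ± 0.13 (SE), and CDKN1C (p57) stood at 13.3 CPM in control, 41.8 under ironomycin, 14.0 under ibrutinib and 30.0 under both and was called higher at 1.37 ± 0.14 (SE). CDKN1B (p27) had a log2 fold change of 0.16 ± 0.11 (SE) that did not pass (edgeR adjusted p = 0.267). The call of CDKN1A was lost without the ibrutinib or the combination library, at 0.67 and 0.66. In the list of cyclins, CDKs and RB as a whole, 2 of 23 genes were called higher (8.70%, against 6.43% of all genes) and 0 lower. The median was -0.40.

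In the BCL2 family, the called genes were both BH3-only activators of death. BBC3, the gene of PUMA, stood at 13.1 CPM in control, 27.3 under ironomycin, 11.5 under ibrutinib and 36.6 under both, a log2 fold change of 1.37 ± 0.14 (SE) (edgeR adjusted p = 5.18e-10). BCL2L11, the gene of BIM, had 12 reads in control, 34 under ironomycin, 8 under ibrutinib and 71 under both, and it passed the filter only through the libraries with ironomycin. BBC3 was higher in each of those libraries, and for BCL2L11 the filter fixed that order. The call of BCL2L11 was lost in DESeq2. Of the survival genes, BCL2 stood at 109 CPM in control, 155 under ironomycin, 83.2 under ibrutinib and 150.2 under both, a log2 fold change of 0.68 ± 0.12 (SE) that passed the adjusted p (edgeR, 2.60e-05) but not 2-fold. MCL1 and BCL2L1 had log2 fold changes of -0.27 ± 0.15 (SE) and -0.14 ± 0.11 (SE) that did not pass (edgeR adjusted p = 0.143 and 0.371). BAX and BAK1, the pore formers, had log2 fold changes of -0.11 ± 0.11 (SE) and -0.24 ± 0.12 (SE) that did not pass either (edgeR adjusted p = 0.493 and 0.0951). The values of BCL2L1 and BAX turned to 0.0055 and 0.035 without scaling between libraries. Over the 14 genes of the family the median was -0.05, with 2 called higher (14.3%, against 6.43% of all genes) and 0 lower. Without BCL2L11, 1 was called higher.

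Most genes of the B-cell receptor signalosome leaned lower. Of 33 tested, 23 were lower in both pairs and 6 higher, and the median was -0.29. The adjusted p was passed by 10 as lower and 3 as higher, against 17.7% and 19.7% of all genes. The calls were 3 higher (9.09%, against 6.43% of all genes) and 2 lower (6.06%, against 2.02%). FYN, a SRC-family kinase, stood at 7.18 CPM in control, 15.4 under ironomycin, 7.71 under ibrutinib and 23.1 under both, a log2 fold change of 1.35 ± 0.16 (SE). ITPR1, the calcium release channel, and RASGRP3, a RAS exchange factor, had log2 fold changes of 1.25 ± 0.14 (SE) and 1.18 ± 0.17 (SE). The call of ITPR1 was lost without the ibrutinib or the combination library, at 0.90 and 0.89. BANK1, an adaptor of B-cell signalling, stood at 61.7 CPM in control, 27.7 under ironomycin, 76.3 under ibrutinib and 39.6 under both, a log2 fold change of -1.05 ± 0.12 (SE). Its call was lost without scaling between libraries, at -0.91, and without the control or the ironomycin library, at -0.93 and -0.96. BTK, the target of ibrutinib, stood at 217 CPM in control, 188 under ironomycin, 232 under ibrutinib and 206 under both, and its log2 fold change of -0.19 ± 0.13 (SE) did not pass (edgeR adjusted p = 0.257).

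Inhibitory receptors and phosphatases were called only as lower at the 2-fold threshold. Of 23 tested, 6 were called lower (26.1%, against 2.02% of all genes) and 0 higher, with a median of -0.28. At any fold 11 passed the adjusted p as lower and 3 as higher, against 17.7% and 19.7% of all genes. The largest log2 fold change was 0.99, just under the threshold. PTPN6, the gene of SHP1, the phosphatase that these receptors recruit, stood at 332 CPM in control, 100.2 under ironomycin, 74.4 under ibrutinib and 13.8 under both. It was lower with ironomycin in both pairs, with log2 ratios of -1.73 and -2.42, although the ironomycin library lay above the ibrutinib library, so the groups overlapped. The fitted log2 fold change was -2.06 ± 0.14 (SE) (edgeR adjusted p = 9.66e-16). FCRL1 and FCRL2, Fc receptor-like proteins, had log2 fold changes of -2.06 ± 0.27 (SE) and -1.85 ± 0.22 (SE). CD22, a lectin that dampens the receptor, stood at 29.4 CPM in control, 10.1 under ironomycin, 24.4 under ibrutinib and 15.7 under both, a log2 fold change of -1.08 ± 0.16 (SE). CD5, which marks MCL cells, stood at 18.7 CPM in control, 7.97 under ironomycin, 6.97 under ibrutinib and 3.59 under both, a log2 fold change of -1.11 ± 0.18 (SE), and LILRB1 had one of -1.11 ± 0.18 (SE). The calls of CD22, CD5 and LILRB1 were lost without scaling between libraries, which left 3 lower and 1 higher. CD22 and CD5 were also lost without the control or the ironomycin library, at -0.61 and -0.65 for CD22 and -0.94 and -0.97 for CD5, and LILRB1 without the ibrutinib or the combination library, at -0.96 and -0.97.

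Of 28 B-cell and plasma cell factors, 17 were lower in both pairs and 8 higher, against 6128 and 6499 of all 15350 genes. The adjusted p was passed by 9 as lower and 6 as higher, against 17.7% and 19.7% of all genes. Of the 28, 4 were called higher (14.3%, against 6.43%) and 1 lower (3.57%, against 2.02%), and the median was -0.20. TNFRSF17, the plasma cell receptor BCMA, stood at 8.64 CPM in control, 37 under ironomycin, 7.49 under ibrutinib and 41.6 under both, a log2 fold change of 2.28 ± 0.14 (SE) (edgeR adjusted p = 8.11e-17). MZB1, an ER co-chaperone of immunoglobulin assembly, stood at 229 CPM in control, 499.7 under ironomycin, 243 under ibrutinib and 500.2 under both, a log2 fold change of 1.09 ± 0.16 (SE). IRF4, a factor of plasma cell fate, stood at 204 CPM in control, 299 under ironomycin, 103 under ibrutinib and 294 under both. It was lowest in the ibrutinib library, its log2 ratios were 0.55 without and 1.51 with ibrutinib, and its call was lost in DESeq2, without a filter on low counts, and without the ibrutinib or the combination library, at 0.55 and 0.54. MEF2B, a germinal centre factor, had a log2 fold change of 1.07 ± 0.27 (SE), with the call lost in DESeq2, without a filter on low counts and without the ironomycin library, at 0.99. ID3, an inhibitor of E proteins, was the called fall, at 169 CPM in control, 99.1 under ironomycin, 220.1 under ibrutinib and 72.0 under both, a log2 fold change of -1.19 ± 0.14 (SE). Its call was lost without the ibrutinib or the combination library, at -0.77 and -0.78. BHLHA15, known as MIST1 and a regulator of secretory cell structure, was not in the list but rose to a like extent: it stood at 5.05 CPM in control, 23.7 under ironomycin, 6.39 under ibrutinib and 39.9 under both, a log2 fold change of 2.44 ± 0.15 (SE) (edgeR adjusted p = 1.02e-16). It changed by -0.57 in JVM2 and 0.92 in MAVER1, and its difference of 2.26 from their mean was called (edgeR adjusted p = 0.00153).

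Genes of iron handling held few calls. Of 22 genes of iron uptake, storage and sensing, 0 were called higher and 1 lower (4.55%, against 2.02% of all genes). The median was 0.02. The called gene was SCARA5, a ferritin receptor, at 11.6 CPM in control, 5.44 under ironomycin, 13.2 under ibrutinib and 4.45 under both, a log2 fold change of -1.32 ± 0.18 (SE) (edgeR adjusted p = 2.24e-07). FTH1, the ferritin heavy chain, stood at 247 CPM in control, 348 under ironomycin, 211 under ibrutinib and 292 under both, and FTL, the light chain, at 423 CPM in control, 591 under ironomycin, 345 under ibrutinib and 445 under both. Both passed the adjusted p under 2-fold, with log2 fold changes of 0.48 ± 0.14 (SE) and 0.42 ± 0.17 (SE) (edgeR adjusted p = 0.00623 and 0.0396). TFRC, the transferrin receptor, stood at 263 CPM in control, 289 under ironomycin, 243 under ibrutinib and 248 under both, and its log2 fold change of 0.084 ± 0.14 (SE) did not pass (edgeR adjusted p = 0.673). Ferritin and transferrin receptor are controlled by iron largely after transcription, through mRNA-binding proteins. Of 29 genes of ferroptosis defence and NRF2 targets, 2 were called higher (6.90%, against 6.43% of all genes), SLC7A11 and the NRF2 target OSGIN1. OSGIN1 had 18 reads in control, 29 under ironomycin, 12 under ibrutinib and 45 under both, and passed the filter only through the libraries with ironomycin. The call of OSGIN1 was lost in DESeq2, without a filter on low counts, and without the ibrutinib or the combination library. GPX4, the lipid peroxidase that guards against ferroptosis, had a log2 fold change of -0.17 ± 0.12 (SE) that did not pass (edgeR adjusted p = 0.269). The list's median was -0.11, and 0.03 without scaling between libraries.

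Some genes of sterol synthesis rose, and sterol exporters fell. Of 32 genes of cholesterol synthesis, 16 passed the adjusted p as higher and 3 as lower, against 19.7% and 17.7% of all genes. At the 2-fold threshold 0 were called, and the median was 0.34. Among 11 targets of LXR, the sterol sensor, 2 were called lower (18.2%, against 2.02% of all genes) and 0 higher, with a median of -0.20. ABCG1, a sterol exporter, stood at 112 CPM in control, 37.6 under ironomycin, 96.5 under ibrutinib and 16.0 under both, a log2 fold change of -2.07 ± 0.15 (SE) (edgeR adjusted p = 4.56e-15). ABCA1, another exporter, stood at 58.2 CPM in control, 29.3 under ironomycin, 67.4 under ibrutinib and 32.8 under both, a log2 fold change of -1.01 ± 0.12 (SE); its call was lost without scaling between libraries, at -0.87, and without the ibrutinib or the combination library, at -0.98 and -0.99. SCARB1, the HDL receptor, had a log2 fold change of 0.11 ± 0.12 (SE) that did not pass (edgeR adjusted p = 0.496).

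Some glycolysis genes and most heat shock proteins of the cytosol and mitochondria fell. Among 37 HIF targets and glycolysis genes, 1 was called higher (2.70%, against 6.43% of all genes) and 3 lower (8.11%, against 2.02%). The median was -0.21. In the fit to all 12 libraries it was -0.08 without the control and -0.12 without the ironomycin library. Without the ibrutinib or the combination library it was -0.25 and -0.26. LDHA, lactate dehydrogenase, stood at 1694 CPM in control, 851 under ironomycin, 1374 under ibrutinib and 479 under both, a log2 fold change of -1.26 ± 0.25 (SE). TPI1 and PGAM1, enzymes of the same route, had log2 fold changes of -1.09 ± 0.22 (SE) and -1.08 ± 0.17 (SE). VEGFA, a HIF target that ATF4 also induces, stood at 43.9 CPM in control, 79.1 under ironomycin, 43.2 under ibrutinib and 143 under both, a log2 fold change of 1.29 ± 0.14 (SE). The 4 calls were lost without the ibrutinib or the combination library, at -0.99 and -1.0 for LDHA, -0.82 and -0.83 for TPI1, -0.90 and -0.91 for PGAM1 and 0.85 and 0.84 for VEGFA, and those of TPI1 and PGAM1 also without scaling between libraries. Of 34 heat shock proteins outside the ER, 26 passed the adjusted p as lower and 0 as higher, against 17.7% and 19.7% of all genes. The median was -0.61, and 2.94% were called lower, against 2.02% of all genes. HSPA8, the constitutive HSP70, stood at 1342 CPM in control, 806 under ironomycin, 1311 under ibrutinib and 478 under both and was the single call, at -1.10 ± 0.24 (SE). Without the control or without the ironomycin library 5 were called, and the call of HSPA8 was lost without scaling between libraries, at -0.95, and without the ibrutinib or the combination library, at -0.73 and -0.74.

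The largest rises among called genes whose log2 CPM averaged 2 or more began from low levels. UNC5B, a netrin receptor, stood at 1.19 CPM in control, 23.6 under ironomycin, 1.74 under ibrutinib and 56.5 under both, a log2 fold change of 4.71 ± 0.18 (SE). KIF1A, a kinesin of neurons, stood at 0.58 CPM in control, 15.6 under ironomycin, 2.07 under ibrutinib and 44.9 under both, and MFAP4, a matrix protein, at 0.497 CPM in control, 12.7 under ironomycin, 1.52 under ibrutinib and 28.5 under both. ADGRG1, an adhesion receptor, stood at 2.48 CPM in control, 44.0 under ironomycin, 5.45 under ibrutinib and 87.9 under both, and HID1, a factor of secretory granules, at 2.15 CPM in control, 24.6 under ironomycin, 2.52 under ibrutinib and 55.4 under both. CSF1, the macrophage growth factor, stood at 8.67 CPM in control, 54.3 under ironomycin, 6.22 under ibrutinib and 158 under both. In all of these genes the libraries with ironomycin did not overlap those without. They were picked for the size of their rise, so that order is not separate support. The log2 fold changes of the last 5 ran from 3.65 for CSF1 to 4.54 for KIF1A. The remaining names among the 10 largest rises were PDIA2, INHBE, TRIB3 and 7SK. 7SK had 66 reads in control, 176 under ironomycin, 78 under ibrutinib and 2750 under both, so its log2 fold change of 3.53 ± 0.35 (SE) came mostly from 1 library, and its call was lost without a filter on low counts and in DESeq2.

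Of the 10 largest falls, 3 were mitochondrial or derived from it: MT-ND3, MT-ND6 and MTCO1P12, a nuclear copy of MT-CO1 whose reads cannot be told from those of its source with certainty. SLA, an adaptor that dampens receptor signalling, stood at 27.9 CPM in control, 6.89 under ironomycin, 11.3 under ibrutinib and 1.22 under both, a log2 fold change of -2.47 ± 0.20 (SE). TMPRSS15 stood at 18.4 CPM in control, 5.13 under ironomycin, 18.9 under ibrutinib and 2.24 under both, and OSBPL10, a sterol-binding protein, at 66.8 CPM in control, 16.9 under ironomycin, 91.5 under ibrutinib and 17.2 under both. GFI1B, a repressor of blood cell fate, stood at 11.9 CPM in control, 3.05 under ironomycin, 14.2 under ibrutinib and 2.71 under both. These 4 genes and ABCG1 were lower in both pairs, as a call required, with log2 fold changes from -2.47 for SLA to -2.07 for ABCG1. NCF1B and NCF1C, copies of NCF1 with near-identical sequence, had log2 fold changes of -2.14 ± 0.20 (SE) and -2.13 ± 0.18 (SE), and which copy the reads came from is uncertain.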

How the data were processed

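RNA-seq of poly(A) RNA from 12 cultures gave 1 library per cell line and treatment, sequenced paired-end on a DNBSEQ platform with a stranded kit. The deposited values are raw read counts per Ensembl gene, which the authors made before any normalization; their processing notes name STAR, DESeq2 and the GRCh37 build, and the versions and the counting settings are not given in the sources used here. From these counts, symbols were taken from a table of gene IDs and names (52181 of 63677 genes matched, and 1065 of 1069 list entries). The 4 JEKO1 libraries, of 35448523 to 38110422 reads, were fitted with edgeR 4.0.16 in R 4.3.3 (TMM scaling, quasi-likelihood test, terms for ibrutinib and ironomycin), over genes with 20 or more reads in at least 2 libraries. Ibrutinib thus served as the block that pairs the libraries, as the treatment labels give it. Genes were called at a Benjamini-Hochberg adjusted p under 0.05, a change of 2-fold or more either way, and the same sign in both pairs. Log2 ratios within a pair used a prior count of 2. Differences between lines came from a fit to all 12 libraries with terms for line, ibrutinib within line and ironomycin within line, with 3 residual degrees of freedom. Nothing in the labels says that cultures were repeated, so p-values measure only the spread between these libraries.

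Members and gene lists were chosen with earlier results of these data known, and no set test was run. The text names the 10 largest rises and falls among called genes whose log2 CPM averaged 2 or more, up to 4 called members per list and direction, the genes whose proteins or transcripts the study measured, and the 5 largest line differences each way. Other genes are said to be named after their values were seen. In genes picked for the size of their change, non-overlap of libraries with and without ironomycin is largely given by the choice. DESeq2 1.42.0, other scalings, filters and fold thresholds, no block, and each library left out in turn were tried. The steps were tested on simulated data. RefSeq promoters (GRCh38.p14) were searched for motifs with Python 3.11.15; 10621 of the 15350 genes had one, and no coordinates were carried between builds. Of the called genes, 88 had no symbol and are not named, and some genes are not reported here.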

Additional observations from a re-analysis of the deposited data

Results flagged for a closer look

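In the fit to all 12 libraries, 29 of the genes named in the report or listed here had an ironomycin effect in JEKO1 that differed from the mean of JVM2 and MAVER1 (edgeR adjusted p under 0.05 and a log2 difference of at least 1). JEKO1 received 50 nM and the other lines 250 nM, so dose and line cannot be told apart. Each gene is given with its fitted log2 fold change in JEKO1, JVM2 and MAVER1 and the difference of the first from the mean of the others. IFI44L, IFIT1 and BCL2L11 passed the JEKO1 filter only through the libraries with ironomycin. For these genes that filter fixed that the JEKO1 libraries with ironomycin had more reads, and their values are listed with this limit.

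Genes of the antiviral group were higher in JEKO1 and did not rise in JVM2. IFI44L had 4.04, -0.78 and -2.28, a difference of 5.57. IFIT1 had 3.82, -1.27 and -0.61, a difference of 4.76. IFIT3 had 2.32, -0.51 and -0.45, a difference of 2.80, and IFI44 had 2.23, -0.77 and -0.19, a difference of 2.71. XAF1 had 2.15, -0.94 and 0.63, a difference of 2.31, and MX1 had a difference of 2.25 from the values given in the report. KLHDC7B, a gene of the kelch-domain family, had 3.15, 0.071 and 1.45, a difference of 2.39.

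Stress and secretory genes were higher as well. The difference was 2.22 for TRIB3, 1.51 for XBP1 and 2.26 for BHLHA15, from values given in the report. DDIT3 had 2.50, 0.94 and 1.57, a difference of 1.25, and CCPG1 had 2.91, 0.83 and 1.96, a difference of 1.52. SLC6A9 had 2.82, 0.92 and 1.92, a difference of 1.40, and TNFRSF17 had 2.27, -0.49 and 1.39, a difference of 1.82. BCL2L11 had 2.26, -0.52 and 0.38, a difference of 2.34. CSF1 had 3.63, 0.49 and 2.61, a difference of 2.08. UNC5B had 4.71, 0.12 and 4.65, a difference of 2.32; it rose about as much in MAVER1, and its difference from MAVER1 alone was 0.06.

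Below the other lines were mitochondrial, early-response and inhibitory genes. MT-ND3 had -2.75, 0.12 and -0.84, a difference of -2.38, MT-ND4L had -1.63, 0.30 and 0.017, a difference of -1.80, and MT-ND4 had a difference of -1.82. MT-TY, the mitochondrial tyrosine tRNA, had -1.83, -0.36 and 0.18, a difference of -1.74, and MTCO1P12 had -2.13, -0.93 and -0.94, a difference of -1.19. EGR3, an early gene of antigen receptor signalling, had -2.22, 0.75 and 4.39, a difference of -4.80, and KLF2, a factor of quiescence and trafficking, had -1.51, -0.71 and -0.29, a difference of -1.01. PTPN6 had -2.07, -0.36 and -1.34, a difference of -1.22, and LILRB1 had -1.12, 0.0085 and 0.20, a difference of -1.22. ENPP2, the gene of autotaxin, had -1.25, 0.95 and 0.39, a difference of -1.92. NCF1B and NCF1C, whose reads cannot be assigned with certainty, had differences of -1.58 and -1.64.

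Against MAVER1 alone the calls of CCPG1, CSF1, DDIT3, KLHDC7B, MT-ND3, MT-ND4L, MTCO1P12, PTPN6, SLC6A9, TNFRSF17 and UNC5B were lost. Without the ibrutinib library or without the combination library, those of BCL2L11, CCPG1, DDIT3, KLHDC7B, KLF2, LILRB1, MT-ND3, MT-ND4L, MT-TY, MTCO1P12, PTPN6 and UNC5B were lost. Against JVM2 alone, KLF2, MT-TY and MTCO1P12 were lost. KLF2, at the threshold, lost its call in 9 of 10 alternatives, with a difference of -1.22 to -0.80. MTCO1P12 lost its call in 6 of 10.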

How the results depend on the processing

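Compared with 987 genes higher and 310 lower, the counts were 531 higher without a filter on low counts, 540 higher in DESeq2, 189 higher and 55 lower without the replicate block (2 libraries against 2, ibrutinib ignored), and 3013 higher and 2712 lower with no minimum fold change. DESeq2 shared 540 higher and 203 lower calls with edgeR. Leaving out each JEKO1 library in turn, in the fit to 12 libraries, gave 1667, 1571, 498 and 493 higher and 498, 533, 208 and 212 lower (without control, ironomycin, ibrutinib and both). At a log2 ratio of 0.58, 1429 genes rose and 558 fell alike in both pairs. The line difference, 147 above and 85 below, became 289 and 151 against JVM2 alone and 140 below against MAVER1 alone, and, with libraries left out in the same order, 386, 369, 58 and 60 above and 121, 130, 55 and 52 below. Without scaling between libraries BCL2L1 turned to 0.0055 and BAX to 0.035, and neither passed the test. The cause of these changes was not tested. Over the alternatives run, 1377 of the gene values kept direction and call, 162 lost the call, 6 gained it and 2 turned. The calls that rest on the pair without ibrutinib are fewer, and with 1 library per treatment no alternative measures the spread between cultures.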

Other observations

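Of 23 immediate early and ERK feedback genes, 3 were called lower (13.0%, against 2.02% of all genes) and 0 higher. The adjusted p was passed by 7 as lower, against 17.7% of all genes. In the pairs 10 moved in opposite directions, and the median was -0.24. EGR3 had 128 reads in control, 28 under ironomycin, 19 under ibrutinib and 5 under both, KLF2 had 976 reads in control, 351 under ironomycin, 879 under ibrutinib and 345 under both, and SPRY1, an inhibitor of ERK signalling, had 115 reads in control, 58 under ironomycin, 88 under ibrutinib and 44 under both. The 3 genes also had fewer reads with ibrutinib alone than in control. The log2 fold changes were -2.21 ± 0.37 (SE) for EGR3, -1.49 ± 0.15 (SE) for KLF2 and -1.07 ± 0.27 (SE) for SPRY1 (edgeR adjusted p = 8.25e-06, 6.53e-11 and 0.0017). The call of SPRY1 was lost in DESeq2, without scaling between libraries and without the block for ibrutinib. In the NF-kB and TNF-family list, 2 of 24 genes were called higher (8.33%, against 6.43% of all genes), TNFRSF17 and TNFAIP3, the latter a brake on NF-kB. TNFAIP3 stood at 24 CPM in control, 26.1 under ironomycin, 5.97 under ibrutinib and 27.0 under both, a log2 fold change of 1.09 ± 0.22 (SE), and its call was lost without the ibrutinib or the combination library, at 0.13 and 0.12.

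Lysosomal genes, at the site where ironomycin is known to hold iron, had 0 of 37 members called and a median of 0.12. The adjusted p was passed by 12 as higher and 2 as lower, against 19.7% and 17.7% of all genes. Among 31 autophagy genes, 3 were called higher (9.68%, against 6.43% of all genes), CCPG1, WIPI1 and RTN3, and the count was 2 or 5 with 1 library left out. WIPI1, which binds early autophagosome membranes, stood at 4.36 CPM in control, 14.6 under ironomycin, 3.73 under ibrutinib and 21.9 under both, a log2 fold change of 2.15 ± 0.18 (SE). RETREG1, a receptor for autophagy of the ER, had 1 read in control, 3 under ironomycin, 8 under ibrutinib and 12 under both, and was not tested because it fell below the filter. RTN3 had a log2 fold change of 1.03 ± 0.13 (SE), and its call was lost without the ibrutinib or the combination library, at 0.85 and 0.84. MHC class I presentation had 0 of 16 called and a median of 0.17. MHC class II presentation had 1 of 18 called (5.56%, against 6.43% of all genes), the lysosomal reductase IFI30. It had 10 reads in control, 22 under ironomycin, 12 under ibrutinib and 35 under both, and passed the filter only through the libraries with ironomycin.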
